A study of Homo sapiens with 18 samples.

Results

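EMP1, EMP2, EMP3 and PMP22 make up a family of small glycoproteins that cross the cell membrane 4 times. The 4 genes were taken as members, out of 16241 genes measured, through the probe sets to which the platform annotation gives a member as the single gene symbol: 9 probe sets for EMP1, 7 for EMP2, 8 for EMP3 and 8 for PMP22. The genes were chosen by their PMA minus DMSO values in these data, EMP1 for its large increase, so those values are given as a description with no test. All 4 passed the requirement of at least 3 probe sets per gene, and no filter on low values was used.

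The cells were 3 established human lines: HL60, from a promyelocytic leukaemia, THP-1, from a monocytic leukaemia, and U937, from a histiocytic lymphoma with monocyte features. Each line was kept for 3 days with phorbol 12-myristate 13-acetate (PMA) at 30 nM, an activator of protein kinase C that turns such cells into adherent macrophage-like cells, or with its solvent DMSO diluted 1000 fold, and each of the 6 groups holds 3 exon arrays. The lines stand for no range of donors, since each comes from 1 patient. The labels number the arrays 1 to 3 in each group and do not say whether they are separate cultures, so a p-value here reflects array-to-array spread alone, which may be technical.

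PMP22 is a component of the compact myelin that Schwann cells wrap around peripheral nerves, and changes in its dose cause inherited neuropathies. It was first found as a gene switched on in growth-arrested fibroblasts. The 3 epithelial membrane proteins share its fold with the claudins of tight junctions. Family members have been reported to bind the ATP-gated channel P2X7, and EMP2 to steer the surface display of integrins and caveolins.

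EMP1 stands out by the size of its change and EMP3 by a change of sign between lines, larger than that of EMP2. The RefSeq promoter windows of EMP1 and EMP3 (GRCh38.p14, 250 bases before to 50 after a transcription start) are shown. Capitals mark matches to TGANTCA, taken as a loose form of the AP-1 element in which N is any base. Both strands were read, on which this palindrome gives the same matches. A form with a stricter middle base was not searched.
EMP1, chr12:13196476-13196775, plus strand: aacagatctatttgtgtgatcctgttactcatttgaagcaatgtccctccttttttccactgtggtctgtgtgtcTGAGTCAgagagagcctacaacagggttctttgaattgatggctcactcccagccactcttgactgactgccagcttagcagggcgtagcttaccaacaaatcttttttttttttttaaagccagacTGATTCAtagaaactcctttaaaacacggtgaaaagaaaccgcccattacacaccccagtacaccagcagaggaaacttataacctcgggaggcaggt
EMP3, chr19:48325302-48325601, plus strand: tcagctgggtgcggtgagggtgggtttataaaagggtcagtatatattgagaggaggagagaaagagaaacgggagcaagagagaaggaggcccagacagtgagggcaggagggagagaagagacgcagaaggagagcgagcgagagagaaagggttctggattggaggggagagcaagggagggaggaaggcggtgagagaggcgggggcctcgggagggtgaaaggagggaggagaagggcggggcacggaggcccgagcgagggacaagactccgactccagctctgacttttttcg
The EMP1 window held 2 matches, TGAGTCA beginning at base -175 and TGATTCA beginning at base -48 from the start. The table holds 7 windows for the 4 genes, and the other 6 held no match, the printed EMP3 window among them. Of all 35116 windows of this length 7.71% held at least 1 match and 0.515% held 2 or more. The EGR element GCGTGGGCG, searched on both strands, was in none of the 7 windows and in 0.795% of all windows. The windows also differ in composition: the EMP1 window had 44.3% G and C and 4 CpG dinucleotides, the EMP2 window 77% and 33, against medians of 58.7% and 14 over all windows. A match describes letters and not a bound site, and motifs and windows were chosen with the results known.

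A gene level is the mean of the log2 values of its probe sets, and 1 log2 unit is a 2 fold difference. The 30th percentile of probe sets, 5.17, serves as a mark of low signal, since no detection values were given, and changes that start below it are approximate. Levels of different genes are not compared, because probes differ in brightness. Array medians ran from 6.18 to 6.95. Exact ties, a trace of joint normalization, numbered 39 to 116 between a line's own arrays and at most 7 across lines, and at most 5 for either U937 array numbered 2. Levels set across lines, or with these 2 arrays, may thus compare values normalized apart. U937 PMA 2 also held 83228 distinct values against 214471 or more in each other array. Across all genes limma called 23% in HL60, 22.6% in THP-1 and 22% in U937 with PMA (adjusted p under 0.05). Increases made up 25% of the U937 calls and 41.5% of the THP-1 calls, but after quantile scaling 48.3% and 50.1%, and after centring 50.3% and 51.7%. Those scalings moved the median change of all genes in U937, -0.07 as deposited, up by 0.19 and 0.24. Of the 7 myeloid markers measured, 6 or 7 lay above 5.17 in every group, among them CD33, at 8.10 to 8.75. The T cell genes CD3D and CD3E and the epithelial genes EPCAM and CDH1 lay below it in every group. Above it lay 2 of 4 measured epithelial genes, 2 or 3 of 5 fibroblast genes, all 3 measured Schwann cell genes of 5 listed, 0 of 3 T and NK genes, the 1 measured B cell gene and 0 or 1 of 2 erythroid genes in each group, and their part in the results was not tested. Each call reported below for a list gene in U937 other than CDKN1B held without the U937 arrays numbered 2.

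EMP1 had the largest change of the family, 6.91 log2 units higher with PMA in HL60, 5.90 in THP-1 and 5.16 in U937. The EMP3 difference was -1.55 in HL60, 1.36 in THP-1 and 0.62 in U937. For EMP2 and PMP22 the differences lay between -0.67 and 0.66. Within the arrays of one number, PMA lay on the same side of DMSO in all 3 pairs for 11 of the 12 combinations of gene and line. The exception was PMP22 in U937. The share of all genes with such pairs was not counted and these values chose the members, so nothing is read from this count.

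**Figure D1:**
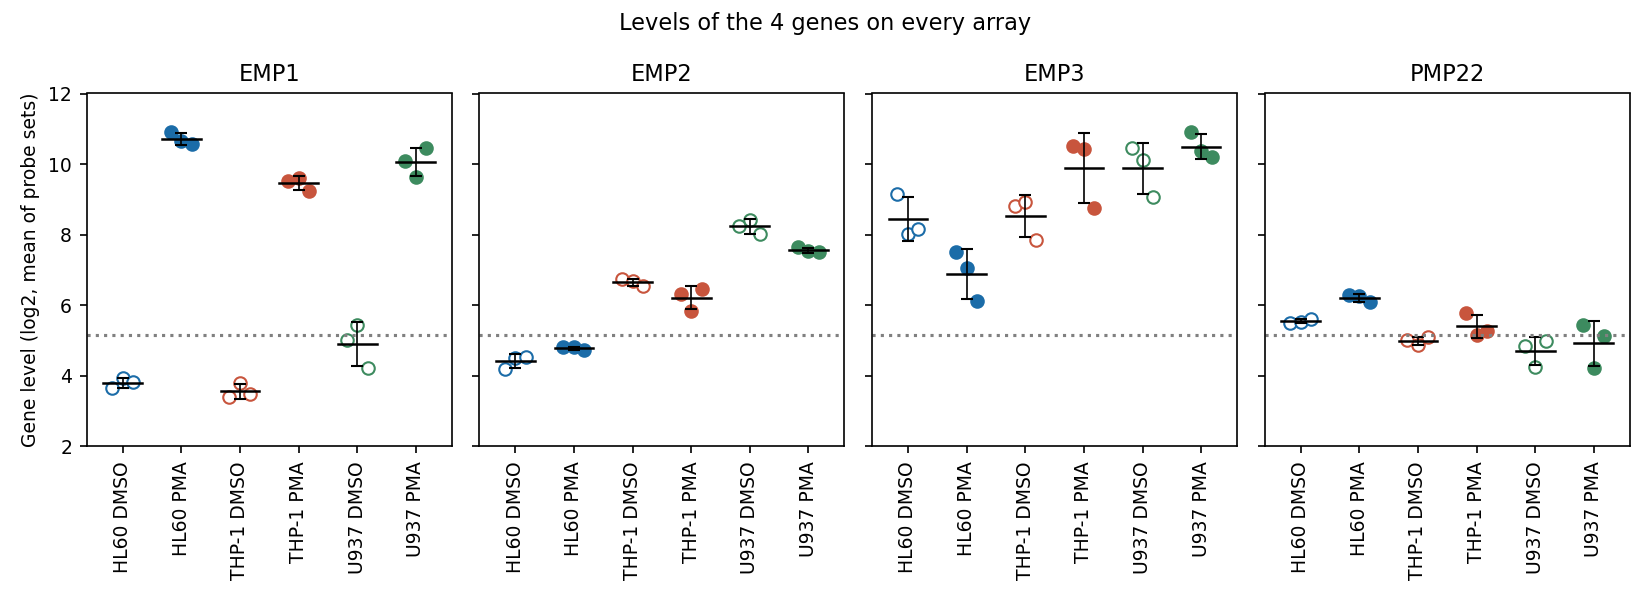
Level of each gene (vertical axis, log2, mean of its probe sets) on every array, by line and treatment (horizontal axis). Open circles are DMSO and filled circles PMA arrays, horizontal bars are means with SD (n = 3), and the dotted line is the 30th percentile of probe sets, 5.17. The EMP1 group means lie below that line with DMSO and at 9.47 to 10.71 with PMA, and the EMP3 mean is lower with PMA in HL60 and higher in THP-1.

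EMP1, epithelial membrane protein 1, is a membrane protein of epithelia linked to growth and adhesion. In HL60 its level was 3.65, 3.94 and 3.82 on the 3 DMSO arrays and 10.91, 10.65 and 10.57 on the PMA arrays. In THP-1 it was 3.40, 3.80 and 3.49 with DMSO and 9.53, 9.62 and 9.25 with PMA. In U937 it was 5.03, 5.44 and 4.23 with DMSO and 10.10, 9.64 and 10.44 with PMA. The groups lay far apart in every line: the lowest PMA array was 6.63 above the highest DMSO array in HL60, 5.45 in THP-1 and 4.20 in U937. The change of 6.91 ± 0.26 (SE) in HL60 was the 2nd highest of 16241 genes, that of 5.90 ± 0.26 in THP-1 the 9th and that of 5.16 ± 0.26 in U937 the 12th. Without the U937 arrays numbered 2 the change in U937 was 5.64.

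All 9 EMP1 probe sets were higher with PMA in each line, with no overlap between PMA and DMSO arrays, where 18.1% of all probe sets lay entirely above in HL60, 14.7% in THP-1 and 6.44% in U937. Their changes ran from 2.49 to 9.49 in HL60, from 2.14 to 8.53 in THP-1 and from 1.46 to 7.34 in U937. The probe set 3405769 went from 2.22 ± 0.30 (SD, n = 3) with DMSO to 11.72 ± 0.18 with PMA in HL60. The probe sets with the smallest changes had different starting points. Probe set 3405775 already read 7.26 ± 0.15 with DMSO in HL60 and reached 11.31 ± 0.21, whereas 3405754 stayed dim at 5.81 ± 0.09 with PMA. In HL60 and THP-1, 7 of the 9 probe sets lay below 5.17 with DMSO, and 5 in U937. The mean over probe sets gave a smaller change than their median, which was 8.20 higher in HL60, 7.17 in THP-1 and 5.94 in U937.

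EMP3, found on leukocytes and in glioma, has been reported to act with CD44 and the TGF-beta receptor. In HL60 its level was 9.15, 8.02 and 8.16 with DMSO and 7.52, 7.05 and 6.12 with PMA, and all PMA arrays lay below all DMSO arrays, as for 16.4% of genes. In THP-1 it was 8.83, 8.92 and 7.85 with DMSO and 10.50, 10.43 and 8.75 with PMA. The lowest PMA array overlapped the DMSO range there. In U937 it was 10.45, 10.12 and 9.07 with DMSO and 10.90, 10.38 and 10.21 with PMA, and the ranges overlapped too. Arrays numbered 3 were low in both THP-1 groups, at 7.85 and 8.75, so the spread of a group hid differences that arrays of the same number shared. PMA minus DMSO by number was -1.63, -0.97 and -2.04 in HL60. It was 1.68, 1.51 and 0.90 in THP-1, and 0.45, 0.25 and 1.15 in U937. All 3 pairs thus fell on one side of 0 in each line, a count from which nothing is read. The mean changes were -1.55, 1.36 and 0.62 with an SE of 0.49, which became 0.22 with the array number as a block. Without the U937 arrays numbered 2 the U937 change was 0.80. In HL60 without 1 array at a time the change ran from -1.86 to -1.16.

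Most probe sets of EMP3 moved in the direction of the gene mean. They were read on the same arrays, so their agreement is not separate support. The share of all probe sets merely higher or lower was not counted, for EMP3 or for the other members. In HL60, 7 of 8 were lower with PMA, 6 of them without overlap, where 16.4% of all probe sets lay entirely below. In THP-1 and in U937 all 8 were higher, but only 1 and 2 of them without overlap, where 14.7% and 6.44% of all probe sets lay entirely above. Probe set 3837736 went from 10.04 ± 0.57 to 7.65 ± 0.91 in HL60 (SD, n = 3) and from 9.92 ± 0.74 to 11.28 ± 0.96 in THP-1. The probe set that stood apart was 3837743, at 7.64 ± 0.61 with DMSO and 7.81 ± 0.45 with PMA in HL60.

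EMP2, epithelial membrane protein 2, is known in lung and reproductive epithelia. In HL60 its level was 4.18, 4.52 and 4.54 with DMSO and 4.81, 4.81 and 4.73 with PMA, all below 5.17. In THP-1 it was 6.74, 6.68 and 6.54 with DMSO and 6.33, 5.85 and 6.47 with PMA. In U937 it was 8.26, 8.42 and 8.02 with DMSO and 7.64, 7.54 and 7.50 with PMA. The PMA arrays lay above the DMSO arrays in HL60 and below them in the other 2 lines, by a margin of only 0.07 in THP-1. Of all genes, 29.7% lay entirely above in HL60, and 19.8% lay entirely below in THP-1 and 19.5% in U937. The mean change was 0.37 ± 0.18 (SE) in HL60, -0.44 ± 0.18 in THP-1 and -0.67 ± 0.18 in U937. The U937 value became -0.40 with quantile normalization, -0.43 with centred arrays and -0.56 without the arrays numbered 2. In THP-1 and in U937, 6 of 7 probe sets were lower with PMA, 2 and 3 of them without overlap, where 18% and 17% of all probe sets lay entirely below. The remaining probe set, 3679995, was higher by 0.49 and 0.08. In HL60 all 7 were higher, by 0.16 to 0.70, though 6 of them were dim with DMSO. Only 2 of the 7 were higher without overlap there, where 18.1% of all probe sets lay entirely above.

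PMP22 lay near the mark of low signal, with group means from 4.70 to 6.21. In HL60 its level was 5.51, 5.53 and 5.62 with DMSO and 6.28, 6.28 and 6.09 with PMA. In THP-1 it was 5.01, 4.87 and 5.10 with DMSO and 5.77, 5.17 and 5.26 with PMA. PMA arrays lay above DMSO arrays in both lines, by 0.47 and 0.07, as did 29.7% and 23.2% of all genes. In U937 it was 4.84, 4.26 and 5.00 with DMSO and 5.45, 4.22 and 5.12 with PMA, and the groups overlapped. The mean change was 0.66 ± 0.26 (SE) in HL60, 0.41 ± 0.26 in THP-1 and 0.23 ± 0.26 in U937. The U937 value was 0.37 without the arrays numbered 2 and -0.029 without U937 PMA 1. In HL60, 7 of 8 probe sets were higher with PMA, 6 of them without overlap, where 18.1% of all probe sets lay entirely above, led by 3746576, which was higher by 1.25.

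**Figure D2:**
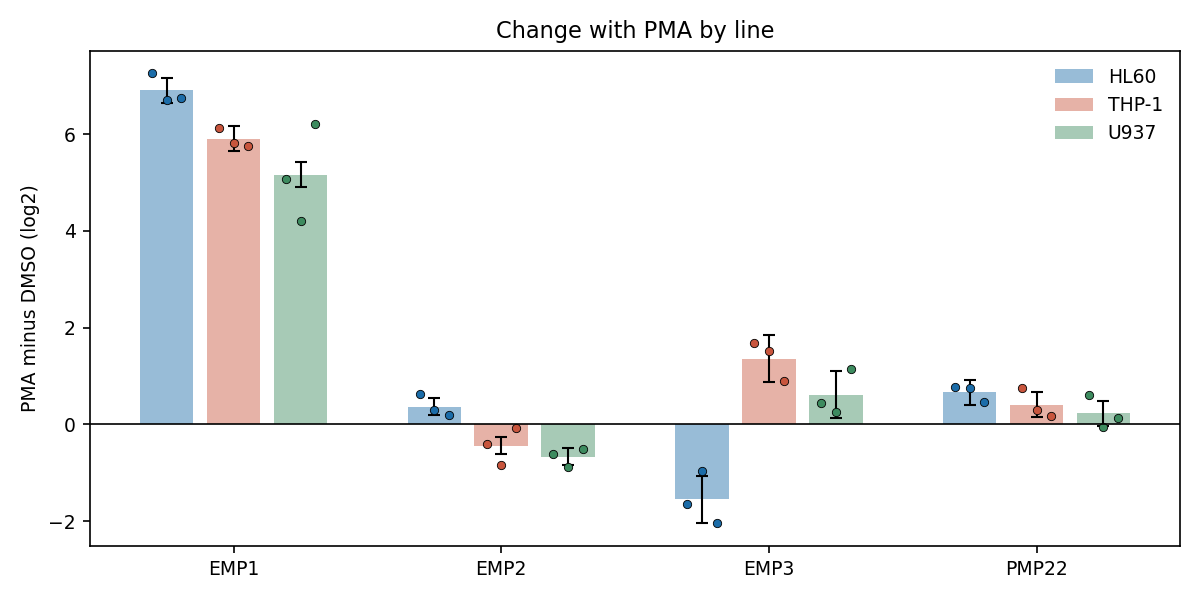
PMA minus DMSO (vertical axis, log2) for each gene (horizontal axis) and line. Bars are differences of group means with the SE pooled over all groups, and points are the differences between arrays of the same number. EMP1 lies between 5.16 and 6.91 in every line, EMP3 at -1.55 in HL60 and 1.36 in THP-1, and EMP2 above 0 in HL60 and below it in the other lines.

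As a description, limma counted EMP1 among the genes higher with PMA in all 3 lines, EMP3 among those lower in HL60 and EMP2 among those lower in U937. Genes called higher were 12.3% of all genes in HL60, 9.38% in THP-1 and 5.5% in U937, and genes called lower 10.7%, 13.2% and 16.5%. With the replicate block limma also counted EMP3 as higher in THP-1 and U937 and PMP22 as higher in HL60, where it counted 34.3% of genes in HL60, 34.8% in THP-1 and 33.2% in U937. The choice of the members used these contrasts, so nothing is read from these counts. PMA arrays all above DMSO arrays, as for EMP1 in each line, were found in 29.7% of genes in HL60, 23.2% in THP-1, 5.86% in U937 and 3.64% in all 3 lines.

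**Figure D3:**
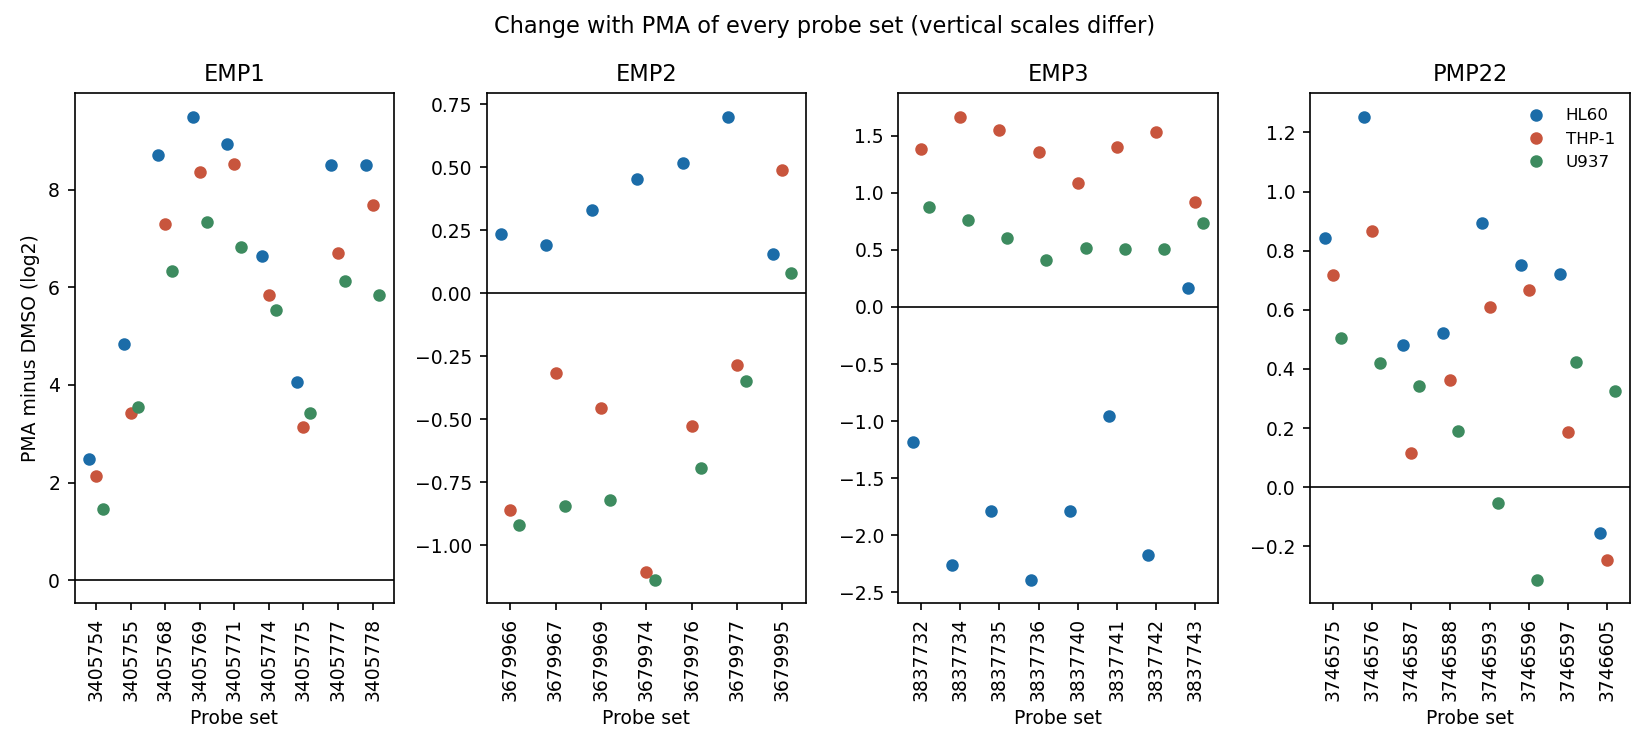
PMA minus DMSO (vertical axis, log2, scale differing by panel) of every probe set of the 4 genes (horizontal axis, in order of probe-set number), with a point for each line. All EMP1 probe sets are above 0, and of 8 EMP3 probe sets 7 are below 0 in HL60 and all 8 above 0 in THP-1 and U937.

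The differences between lines in the PMA effect are made of the same PMA minus DMSO values that chose the members, so they too are a description, given with their SE and 95% interval and no test. The EMP3 effect in HL60 minus that in THP-1 was -2.91 ± 0.69 (SE; interval from -4.37 to -1.45), and HL60 minus U937 was -2.16 ± 0.69 (from -3.62 to -0.70), or -2.35 without the U937 arrays numbered 2. The EMP1 effect in HL60 was 1.75 ± 0.37 larger than in U937 (from 0.97 to 2.52), or 1.27 larger without those arrays, and 1.00 ± 0.37 larger than in THP-1 (from 0.23 to 1.78). The EMP2 effect in HL60 was 1.04 ± 0.25 higher than in U937 (from 0.51 to 1.56) and 0.80 ± 0.25 higher than in THP-1 (from 0.28 to 1.33). The EMP2 difference from U937 was 0.93 without the U937 arrays numbered 2, 0.68 after quantile scaling and 0.75 after centring. These SE and intervals take the arrays as unpaired. With the array number as a block the SE was 0.38 for EMP1, 0.24 for EMP2, 0.32 for EMP3 and 0.24 for PMP22.

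Between THP-1 and U937 the intervals of the difference in effect all held 0. They ran from -0.03 to 1.52 for EMP1, from -0.29 to 0.76 for EMP2, from -0.71 to 2.21 for EMP3 and from -0.60 to 0.96 for PMP22. For PMP22 the interval was from -0.35 to 1.22 between HL60 and U937 and from -0.53 to 1.04 between HL60 and THP-1. Of these 12 differences limma counted 3 at an adjusted p under 0.05, EMP1 and EMP2 for HL60 against U937 and EMP3 for HL60 against THP-1, where it counted 7.78% of all genes for HL60 against THP-1, 7.73% for HL60 against U937 and 4.77% for THP-1 against U937. With the replicate block it also counted EMP2 for HL60 against THP-1 and EMP3 for HL60 against U937, where 15.5% and 16.4% of genes were counted, and nothing is read from these counts.

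Levels in DMSO were compared between lines, a contrast not itself used in choosing the members. The same DMSO arrays do enter the PMA minus DMSO values that chose them, so the p-values are not independent of that choice. Because the lines may have been normalized separately, the ranges given include quantile scaling and centring. EMP2 differed most: HL60 minus U937 was -3.82 ± 0.18 (SE) (limma adjusted p = 1.06e-10), a size that is approximate since 6 of 7 EMP2 probe sets lay below 5.17 in HL60. HL60 minus THP-1 was -2.24 ± 0.18 (limma adjusted p = 5.38e-08) and THP-1 minus U937 -1.58 ± 0.18 (limma adjusted p = 2.58e-06). All 3 EMP2 differences held in each of 14 alternatives, the smallest being -3.48, -2.12 and -1.31, with adjusted p of at most 0.000188. The 3 DMSO ranges of EMP2 did not overlap, and HL60 was below 5.17. The EMP2 order of the 6 groups, from highest to lowest, was U937 DMSO, U937 PMA, THP-1 DMSO, THP-1 PMA, HL60 PMA and HL60 DMSO. Neighbours did not overlap, though the THP-1 groups lay only 0.07 apart. The steps between PMA and DMSO within a line rest on the values that chose the members. The share of all genes separated between lines was not counted, here or for EMP1 below.

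EMP1 in DMSO was highest in U937, though its mean lay below 5.17 in every line, so these sizes are approximate. HL60 minus U937 was -1.10 ± 0.26 (limma adjusted p = 0.00476), and from -1.76 to -0.77 in the alternatives. THP-1 minus U937 was -1.34 ± 0.26 (limma adjusted p = 0.000857), and from -1.94 to -1.06. Both differences were called in all 14 alternatives. Without the U937 arrays numbered 2 they were -0.82 and -1.06. HL60 and THP-1 did not differ at this threshold (0.24 ± 0.26, 95% interval from -0.31 to 0.79), and their DMSO ranges overlapped. With PMA the order was HL60, U937 and THP-1, at 10.71 ± 0.18, 10.06 ± 0.40 and 9.47 ± 0.19 (SD, n = 3), without overlap but with a margin of 0.02 between U937 PMA 2, at 9.64, and the highest THP-1 array. EMP3 in DMSO gave -1.44 ± 0.49 for HL60 minus U937 (limma adjusted p = 0.0423), a call held in 7 of 14 alternatives (adjusted p from 0.000176 to 0.192). It was lost without HL60 DMSO 2, HL60 DMSO 3, U937 DMSO 1 or U937 DMSO 2, where the difference ran from -1.31 to -1.15. THP-1 minus U937 was -1.35 ± 0.49 for EMP3 (limma adjusted p = 0.0509, and 0.000283 with the replicate block, where 44.2% of genes were called). HL60 minus THP-1 was -0.09 ± 0.49 for EMP3, and their DMSO ranges overlapped. The EMP3 order ran from U937 PMA, THP-1 PMA and U937 DMSO, which overlapped as neighbours, through THP-1 DMSO and HL60 DMSO, which overlapped too, to HL60 PMA.

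PMP22 in DMSO was higher in HL60 than in U937 by 0.85 ± 0.26 (limma adjusted p = 0.0252), in 9 of 14 alternatives (adjusted p from 0.000285 to 0.238). The call was lost with only the probe sets above the 30th percentile (0.45, adjusted p = 0.238). It was also lost without U937 DMSO 2 (0.63, adjusted p = 0.134) and without HL60 DMSO 1, 2 or 3 (0.82 to 0.88, adjusted p up to 0.0776). It was kept without both U937 arrays numbered 2 (0.63, adjusted p = 0.014). The difference from THP-1 was 0.56 ± 0.26 (limma adjusted p = 0.177, and 0.0233 with the replicate block, where 28.1% of genes were called). HL60 PMA was the highest group of PMP22, at 6.21 ± 0.11 (SD, n = 3), and the lowest, U937 DMSO, was at 4.70 ± 0.39. In DMSO, 7 of the 12 differences were called in all, where 16.6% of genes were called between HL60 and THP-1, 22.9% between HL60 and U937 and 26.2% between THP-1 and U937.

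The genes whose levels followed each member most closely over the 18 arrays were taken by Pearson correlation, a description in which arrays share lines, treatments and normalization sets. For EMP1 they were the membrane protein TM4SF19 (r = 0.989), the kinase SGK1 (r = 0.989) and the AP-1 subunit JUN (r = 0.983). PMA minus DMSO was 6.40, 6.25 and 5.67 for TM4SF19 in HL60, THP-1 and U937, 6.27, 4.94 and 4.31 for SGK1, and 4.52, 2.94 and 2.94 for JUN. For EMP3 they were TRAF3IP3 (r = 0.962), a TRAF3-binding protein, the glycophorin GYPC (r = 0.935) and the gamma-secretase subunit APH1B (r = 0.932). These 3 were lower in HL60, by -1.55, -1.63 and -0.89, and higher in THP-1, by 1.12, 1.53 and 1.01. In U937 their differences were 0.34, -0.16 and 0.27, so GYPC did not share the direction of EMP3 there. For EMP2 they were the receptor CD93 (r = 0.962), the cytidine deaminase APOBEC3B (r = 0.961) and the sulfotransferase SULT1A1 (r = 0.956). PMA minus DMSO in HL60, THP-1 and U937 was 0.17, 0.37 and 0.27 for CD93, 0.11, -0.43 and -1.49 for APOBEC3B and 0.12, -0.30 and -0.05 for SULT1A1. CD93 thus went the other way from EMP2 with PMA in THP-1 and U937. For PMP22 they were ANGPTL6 (r = 0.918), ILDR2 (r = 0.902) and MPZL3 (r = 0.894). Their differences were 1.17, 0.51 and 0.24 for ANGPTL6, 1.10, 0.03 and -0.02 for ILDR2 and 1.68, 0.31 and 0.15 for MPZL3.

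Other genes around the family were taken from fixed lists, chosen with earlier results known and described by counts of limma calls and medians. Of 17 measured genes reported as partners of the members, 8 rose and 1 fell in HL60, 8 rose in THP-1 and 6 rose in U937. Their median changes were 0.62, 0.45 and 0.24, against 0.13, 0.04 and -0.07 for all genes. The share called was 52.9%, 47.1% and 35.3%, against 23%, 22.6% and 22% of all genes. The THP-1 count was 5 without THP-1 DMSO 1 or without THP-1 PMA 3, and no partner fell in HL60 without HL60 DMSO 2 or PMA 2. The gene that fell was the chaperone CANX (-0.65), named after its values were seen. P2RX7, the channel reported to bind all 4 members, rose by 1.44 ± 0.34 (SE) in HL60 (limma adjusted p = 0.0043) and by 3.21 ± 0.34 in U937 (limma adjusted p = 3.25e-06). In THP-1 it was at 5.20 with DMSO and 5.24 with PMA. The integrin chain ITGB3 rose by 1.97 ± 0.29 in HL60 and 2.57 ± 0.29 in THP-1, and was 0.05 ± 0.29 higher in U937. ITGB5 rose by 4.14 ± 0.28 in THP-1 and 2.84 ± 0.28 in U937. It was 0.62 ± 0.28 higher in HL60 (limma adjusted p = 0.134, and 0.0348 with the replicate block). ITGA6, the laminin-binding chain, rose by 3.14 ± 0.47 in HL60 and 1.81 ± 0.47 in U937. In THP-1 it rose by 1.65 ± 0.47 (limma adjusted p = 0.0163), a call lost without THP-1 DMSO 1, DMSO 2 or PMA 3 (adjusted p up to 0.0724).

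**Figure D4:**
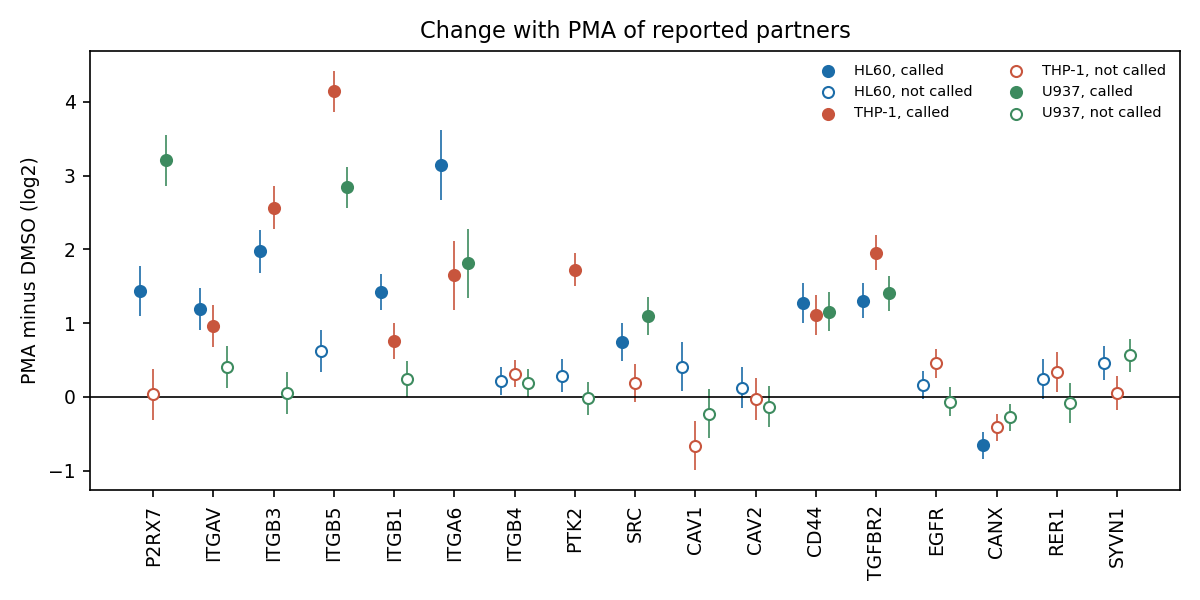
PMA minus DMSO (vertical axis, log2) for 17 genes reported as partners of the family (horizontal axis) in each line, with the SE pooled over all groups. Filled points passed limma's test (adjusted p under 0.05) and open points did not; P2RX7 is highest in U937 at 3.21, and ITGB5 in THP-1 at 4.14.

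Of 22 measured relatives of claudin type, 4 rose and 1 fell in HL60, 2 rose and 1 fell in THP-1 (1 rose without THP-1 DMSO 1, 2 or 3 or PMA 1), and 3 rose in U937 (median changes 0.33, 0.27 and 0.09). With centred arrays 5 rose in U937, and by the median of probe sets 1 rose in THP-1. The granule membrane protein NKG7 fell by 1.58 in HL60 and fell by 0.85 in THP-1, GSG1 rose by 1.23 in HL60 and 1.15 in U937, and CLDN12 rose by 1.91 in U937. GSG1 also rose by 0.58 in THP-1 (limma adjusted p = 0.0485), a call lost in 8 of 14 alternatives, among them those without THP-1 DMSO 1, 2 or 3 or PMA 1 or 3 (adjusted p up to 0.18). CLDND1 rose by 1.05 in HL60, and by 0.92 in U937, where the call was lost without U937 DMSO 3 or PMA 1 (adjusted p up to 0.0893). Thus 13.6% to 22.7% of these relatives were called per line, near or below the share of all genes.

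Of 12 regulators of myelin genes, 5 rose in HL60, 6 in THP-1 and 3 in U937 and none fell (median changes 0.34, 0.61 and 0.05). The share called was 41.7%, 50% and 25%, the last near the 22% of all genes in U937. The HL60 count was 3 by the median of probe sets. EGR2, the zinc finger factor that drives myelin genes in Schwann cells, rose by 6.01 ± 0.26 (SE) in HL60, 3.03 ± 0.26 in THP-1 and 3.67 ± 0.26 in U937, and its corepressor NAB2 by 1.56, 1.34 and 1.14. NRG1, the axonal signal for myelination, rose by 1.75 ± 0.20 in THP-1, and EGR3 by 1.94 ± 0.22 in U937. EGR3 also rose by 0.66 in HL60 (limma adjusted p = 0.04), a call lost in 8 of 14 alternatives, among them those without HL60 DMSO 1, DMSO 2, PMA 1 or PMA 2 (adjusted p up to 0.248). Of 9 AP-1 factors, 5 rose in HL60, 4 in THP-1 (2 without THP-1 PMA 1, 7 after quantile scaling) and 7 in U937 and none fell (median changes 0.84, 0.59 and 0.98). The share called was 55.6%, 44.4% and 77.8%. ATF3 rose by 3.34, 2.21 and 1.66, JUNB by 2.31 in HL60 and 1.28 in U937, and FOS by 2.41 in U937. JUNB also rose by 1.13 in THP-1 (limma adjusted p = 0.0148), a call lost without THP-1 DMSO 3, PMA 1 or PMA 2 (adjusted p up to 0.0946).

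Of 10 growth arrest-specific genes and CDK inhibitors, 3 rose in HL60, 4 rose and 1 fell in THP-1, and 2 rose and 1 fell in U937 (median changes 0.47, 0.48 and 0.06). The share called was 30% in HL60, 50% in THP-1 and 30% in U937, near the 23% and 22% of all genes in HL60 and U937. Leaving out THP-1 DMSO 2, DMSO 3 or PMA 1 left 2 that rose in THP-1, and the genes that fell were 0 without THP-1 DMSO 1, DMSO 2 or PMA 3. In U937 none fell without U937 DMSO 1, DMSO 2 or PMA 3, or after quantile scaling or centring. In HL60, 5 rose with the replicate block or without the U937 arrays numbered 2 and 6 rose with HL60 arrays alone. The genes that fell, named after their values were seen, were the secreted ligand GAS6 in THP-1 (-0.66) and the inhibitor CDKN1B in U937 (-1.08). The inhibitor CDKN1A rose by 3.79, 3.17 and 3.36 in HL60, THP-1 and U937, CDKN2B by 2.21 in HL60 and 1.32 in U937, GAS7 by 1.97 in THP-1 and GAS2L3 by 1.35 in HL60. CDKN2B also rose by 0.57 in THP-1 (limma adjusted p = 0.0289), a call lost without THP-1 DMSO 1, 2 or 3 or PMA 1 (adjusted p up to 0.189). PMP22, itself first described as such a gene, was higher by 0.66 or less. Of 9 proliferation genes, 8 fell and none rose in each line (median changes -2.71, -1.91 and -1.97), a share of 88.9%, and TOP2A, a topoisomerase of dividing cells, changed by -4.99 in HL60, -2.91 in THP-1 and -2.57 in U937. The proliferation marker MKI67 changed by -3.73, -1.91 and -2.08, the cyclin CCNA2 by -3.43, -2.14 and -2.28, and the replication helicase subunit MCM6 by -3.35, -1.57 and -2.21.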

How the data were processed

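The authors deposited log2 signals of core exon probe sets on 18 arrays. They used Affymetrix Expression Console, per the submitters' processing notes; no source used here gives its version, background correction or normalization. The signals were used unchanged. Of 287329 probe sets, 261273 had 1 gene symbol, 9155 several and 16901 none in the platform annotation. Of 16941 symbols, 14546 were current in RefSeq (GRCh38.p14), 2300 older ones were updated and 95 kept. A gene level was the mean of its probe sets, for the 16241 genes with at least 3. Probe-set positions were not used here.

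Genes were fitted with limma 3.58.1 in R 4.3.3 as 6 group means, with 12 residual degrees of freedom; two-sided p-values were adjusted over all genes (Benjamini-Hochberg, threshold 0.05). The fit was tested on simulated data. Precision is limited by the number of arrays. Arrays of the same number within a line deviated together (r from 0.29 to 0.79 in 9 of 9 pairs, over genes). Differences between arrays of the same number are therefore given as pairs. The main fit, with its SE, intervals and calls, does not use this pairing. Of the 9 DMSO arrays, 7 correlated best with the PMA array of their own number, but THP-1 DMSO 1 and U937 DMSO 2 did not. The labels do not state this pairing. A fit with the number as replicate block was an alternative, as were quantile normalization, centred arrays, the median of probe sets, filters, fewer arrays and leaving out each array. Text names the 4 members, up to 4 called genes with the largest change per list (P2RX7, EGR2 and CDKN1A always) and 3 genes most like each member. Markers were myeloid, epithelial, fibroblast, Schwann cell, T and NK, B and erythroid genes. Members and lists were chosen with earlier results of these data known. Sequences are from RefSeq windows, 4 of 4 members matched. Figures used matplotlib 3.10.9.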

Additional observations from a re-analysis of the deposited data

Results flagged for a closer look

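In 3 comparisons the difference between lines in the PMA effect passed limma's threshold. These differences are made of the PMA minus DMSO values that chose the members, so their p-values are left out and they stand as a description. The EMP1 effect in HL60 minus that in U937 was 1.75 log2 units, with all 3 pairs of arrays higher in both lines. The EMP2 effect in HL60 minus that in U937 was 1.04, with PMA above DMSO in 3 of 3 pairs in HL60 and below it in 3 of 3 in U937. The EMP3 effect in HL60 minus that in THP-1 was -2.91, with PMA below DMSO in 3 of 3 pairs in HL60 and above it in 3 of 3 in THP-1. The share of all genes with such pairs was not counted, so nothing is read from these pair counts.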

How the results depend on the processing

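Of 168 alternative values of the members' PMA changes, 160 moved by less than 1 SD between arrays. Some settings cannot move a change within a line, such as the replicate block or using only the arrays of that line. They are in this count, so it is no measure of stability. Of 240 alternatives for differences of effects, 224 kept direction and side of the threshold, and of 168 for DMSO differences, 142. The median of probe sets gave EMP1 changes of 8.20 in HL60, 7.17 in THP-1 and 5.94 in U937, and probe sets above the 30th percentile 7.46 in HL60 and 6.37 in THP-1. The EMP2 change in U937 was -0.40 with quantile normalization and -0.43 with centred arrays.

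Without both U937 arrays numbered 2, and with only the arrays of the lines compared, HL60 minus THP-1 passed the threshold for the EMP1 effect (1.00), the EMP2 effect (0.80) and PMP22 in DMSO (0.56, adjusted p = 0.0164 and 0.0209). With the replicate block the same held for EMP2 (0.80) and PMP22 (0.56, adjusted p = 0.0233), and PMP22 was 0.61 with quantile normalization and 0.65 with centred arrays (adjusted p = 0.0242 and 0.032). For differences of effects, which rest on the values that chose the members, calls are a description. The EMP2 effect in HL60 minus U937 did not pass at 0.68 with quantile normalization, 0.75 with centred arrays and 1.22 with the median of probe sets. The EMP3 effect in HL60 minus U937 was called with quantile normalization (-2.42), centred arrays (-2.45), the replicate block and only the lines compared (both -2.16). In DMSO, EMP3 in HL60 minus U937 was not called with quantile normalization (-1.08), centred arrays (-1.11) or without both U937 arrays numbered 2 (-1.31), and EMP3 in THP-1 minus U937 was called with the median of probe sets (-1.54), the replicate block and only the lines compared (both -1.35). EMP3 in HL60 minus THP-1, -0.09, turned to 0.00012 with centred arrays. PMP22 in HL60 minus U937 was not called, at 0.45, with probe sets above the 30th percentile. PMP22 probe set 3746593 in U937, at -0.054, turned to 0.062 with quantile normalization. Beside the members' calls given with the results, the replicate block changed no other call among these differences between lines.

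Genes called with the replicate block numbered 5648 in THP-1 and 5399 in U937 for PMA, 2516, 2664 and 1647 for effects in HL60 minus THP-1, HL60 minus U937 and THP-1 minus U937, and 4561, 6029 and 7173 for the same pairs in DMSO. As deposited they numbered 3666 and 3571, 1264, 1256 and 774, and 2692, 3718 and 4263. With quantile normalization and centred arrays they were 2317 and 2156 for effects in HL60 minus THP-1, 1395 and 1329 for THP-1 minus U937, and 4197 and 4423 in DMSO for HL60 minus THP-1. Without both U937 arrays numbered 2 they were 2075 for effects and 4044 in DMSO for HL60 minus THP-1, and 7064 in DMSO for THP-1 minus U937; with only the lines compared, 2049 for effects in HL60 minus THP-1.

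Without 1 array at a time, the PMP22 change in U937 ran from -0.029 to 0.59. Differences of effects ran from 0.62 to 0.93 for EMP2 in HL60 minus THP-1, from -2.47 to -1.76 for EMP3 in HL60 minus U937, and from -0.18 to 0.44 for PMP22 in THP-1 minus U937 (negative without THP-1 PMA 1 or U937 PMA 2). In DMSO, EMP3 ran from -0.44 to 0.13 in HL60 minus THP-1, from -1.84 to -1.15 in HL60 minus U937 and from -1.75 to -1.01 in THP-1 minus U937, and PMP22 from 0.63 to 1.00 in HL60 minus U937. Genes called for effects ran from 886 to 1943 in HL60 minus U937 (highest without U937 PMA 3) and from 560 to 1186 in THP-1 minus U937 (highest without U937 PMA 2). The cause of these changes was not tested. Of 504 list counts 36 moved by over 1.5 times. Signal near background limits EMP1 in DMSO, EMP2 in HL60 and PMP22.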
